A study of Mus musculus with 12 samples.

Results

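The interferon response genes described here are 38 genes chosen by name, among 25203 gene symbols in the deposited table. They were taken from the table by symbol, and all 38 were found. The table gives FPKM, a level scaled to transcript length and to the size of the library, for 12 RNA-seq libraries of mouse intestinal mesenchyme cultures. The cultures were primary stromal fibroblasts with low signal of a Pdgfra-H2B-GFP reporter, which marks cells that express the platelet-derived growth factor receptor alpha. They formed 4 groups of 3 libraries. Tgfbr2KO_TGFB1 cultures were labelled knockout for Tgfbr2, the type II receptor of TGF-beta, and were given TGFB1. Tgfbr2KO_Vehicle cultures carried the same knockout label and were given vehicle. TGFB1 cultures were not labelled knockout and were given TGFB1, and Vehicle cultures were not labelled knockout and were given vehicle. The age of the animals, the way the receptor gene was deleted, the dose of TGFB1, the time of treatment and the number of animals were not given in the sources used here. The design asks what TGFB1 does to these fibroblasts and which responses do not need the canonical receptor.

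Interferons are secreted proteins that warn cells of viruses and other pathogens. Type I interferons bind the receptor IFNAR, whose kinases JAK1 and TYK2 activate STAT transcription factors. With IRF9 these bind interferon-stimulated response elements near the start of their target genes. Interferon gamma acts through its own receptor and leads to binding at gamma-activated sites. The products of the target genes sense viral RNA, degrade it, block translation, bind virus particles at membranes, or feed back on the pathway. Stromal fibroblasts carry the receptors and can respond to both kinds of interferon.

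Promoters of 5 members are shown because they hold the response element and belong to members whose level varied widely over the 12 libraries. They are RefSeq sequences of build GRCm38.p6, each with 250 bases before and 50 after the start of the gene, 5′ to 3′ on the strand of the gene, and capitals mark GAAA, any 2 bases and GAAA again, read on either strand with overlapping matches joined.
Isg15, chr4:156200769-156201068, minus strand: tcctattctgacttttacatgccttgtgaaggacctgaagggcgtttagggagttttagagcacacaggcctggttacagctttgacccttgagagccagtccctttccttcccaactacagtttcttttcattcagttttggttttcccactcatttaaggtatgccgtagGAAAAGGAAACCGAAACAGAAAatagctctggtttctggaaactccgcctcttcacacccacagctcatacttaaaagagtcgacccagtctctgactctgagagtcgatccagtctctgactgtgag
Ifit1, chr19:34640639-34640938, plus strand: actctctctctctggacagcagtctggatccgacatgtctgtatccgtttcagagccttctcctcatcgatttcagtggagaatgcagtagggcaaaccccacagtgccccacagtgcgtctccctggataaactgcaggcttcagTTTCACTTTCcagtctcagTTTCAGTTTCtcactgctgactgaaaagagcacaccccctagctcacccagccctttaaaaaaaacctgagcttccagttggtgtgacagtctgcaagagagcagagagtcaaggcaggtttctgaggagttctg
Ifit3, chr19:34583279-34583578, plus strand: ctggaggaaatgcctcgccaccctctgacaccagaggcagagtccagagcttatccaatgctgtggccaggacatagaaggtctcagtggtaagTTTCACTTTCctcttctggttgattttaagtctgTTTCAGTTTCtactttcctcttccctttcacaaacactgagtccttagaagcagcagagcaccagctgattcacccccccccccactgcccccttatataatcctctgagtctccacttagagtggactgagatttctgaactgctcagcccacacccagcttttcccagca
Gbp3, chr3:142559794-142560093, plus strand: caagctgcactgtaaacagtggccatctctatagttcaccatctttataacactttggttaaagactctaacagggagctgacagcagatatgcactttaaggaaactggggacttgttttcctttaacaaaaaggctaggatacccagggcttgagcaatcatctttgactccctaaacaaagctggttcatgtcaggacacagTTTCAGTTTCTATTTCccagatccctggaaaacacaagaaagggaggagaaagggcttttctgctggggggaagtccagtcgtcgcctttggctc
Bst2, chr8:71537423-71537722, minus strand: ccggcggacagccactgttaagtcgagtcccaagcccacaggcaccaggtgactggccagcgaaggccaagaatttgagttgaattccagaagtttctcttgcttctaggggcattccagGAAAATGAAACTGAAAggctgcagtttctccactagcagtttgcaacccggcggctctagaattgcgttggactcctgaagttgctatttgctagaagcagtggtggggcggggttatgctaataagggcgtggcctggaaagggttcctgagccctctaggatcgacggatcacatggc

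In the Isg15 promoter 3 overlapping matches formed 1 run that began at position -78 from the start. The Ifit1 promoter held 2 separate matches on the opposite strand, the first at position -104, and the Ifit3 promoter likewise held 2, the first at position -156. The 2 overlapping matches began at position -45 in Gbp3 and at position -130 in Bst2. A promoter entry was at hand for 30 of the 38 members, and 17 of these 30 (56.7%) held that motif. Among all 32851 promoters of this length, 1131 (3.44%) held it. Counted by gene, as for the members, 1079 of 27025 genes (3.99%) did. The letters of a gamma-activated site, TTCNNNGAA on either strand, stood in 8 of the 30 members (26.7%). They stood in 2726 of all promoters (8.30%), or in 2582 of the 27025 genes (9.55%). Both motifs were found in Bst2, Eif2ak2, Ifitm3, Igtp and Oas1a. No entry was at hand for Ifi27, Dhx58, Oas2, Mx1, Mx2, Usp18, Rtp4 and Parp14. These matches describe the letters in these windows and no binding was measured.

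The FPKM of a library summed to between 498669 and 569510. Low values placed the relative depth of the libraries between 0.745 and 1.25, with Vehicle replicate 1 as 1, while read numbers are not known. Tgfbr2 itself had 31.6, 38.0 and 62.4 FPKM in Tgfbr2KO_TGFB1, 27.0, 35.2 and 41.9 in Tgfbr2KO_Vehicle, 56.5, 70.6 and 74.6 in TGFB1 and 48.0, 38.2 and 78.8 in Vehicle. The knockout libraries overlapped the others in both comparisons between genotypes (adjusted p = 0.119 with TGFB1 and 0.26 without). Which part of the gene was deleted was not given, so a value for the whole gene does not check the label. All 12 fibroblast markers on a list reached the test filter, and their summed level was 5064 to 9911 FPKM in Tgfbr2KO_TGFB1, 4063 to 5759 in Tgfbr2KO_Vehicle, 13634 to 15007 in TGFB1 and 7423 to 12708 in Vehicle. In bulk RNA, fewer cells of a type and less RNA per cell cannot be told apart.

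Values below are FPKM in replicates 1, 2 and 3 of a group, in that order, with n = 3 per group. Of the 38 members, 31 reached 1 FPKM in at least 3 of the 12 libraries and were tested, among 12641 genes tested in all. Ifi44, Oas2, Oas3, Mx1, Mx2, Rsad2 and Cmpk2 did not reach it. Some of the 31 passed through the libraries in which they were high, so counts over the 31 describe those genes and not the whole list. Changes are differences of log2(FPKM + 1), on which genes with low FPKM change less than in FPKM itself. Their p-values come from limma with the Benjamini-Hochberg adjustment over the 12641 genes, and 0.05 was the threshold.

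The leading feature of the data was a difference between libraries of 1 group. Replicate 3 of Tgfbr2KO_TGFB1 was the highest of all 12 libraries in 33 of the 38 members, and in 28 of the 31 tested. Among all tested genes it was the highest in 13.8%. In 26 of the 38 members, and in 21 of the 31 tested, replicate 3 of this group was highest and replicate 2 second of all 12 libraries, an order that 1.43% of all tested genes had. Replicate 1 of the same group stood among the libraries of the other groups: the median log2(FPKM + 1) of the 31 tested members was 1.91 there, against 2.88 in replicate 2 and 3.97 in replicate 3. The same medians were 2.11, 2.35 and 2.55 in Tgfbr2KO_Vehicle, 1.15, 1.07 and 1.46 in TGFB1, and 2.36, 1.19 and 2.17 in Vehicle. For most members the mean of Tgfbr2KO_TGFB1 thus averages libraries that differed widely, though not for Ifit2, Ifi209, Irgm1 and Mx1, whose 3 libraries lay close. Counts, medians and the folds that 1 library moved most are also given without single libraries below.

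**Figure D1:**
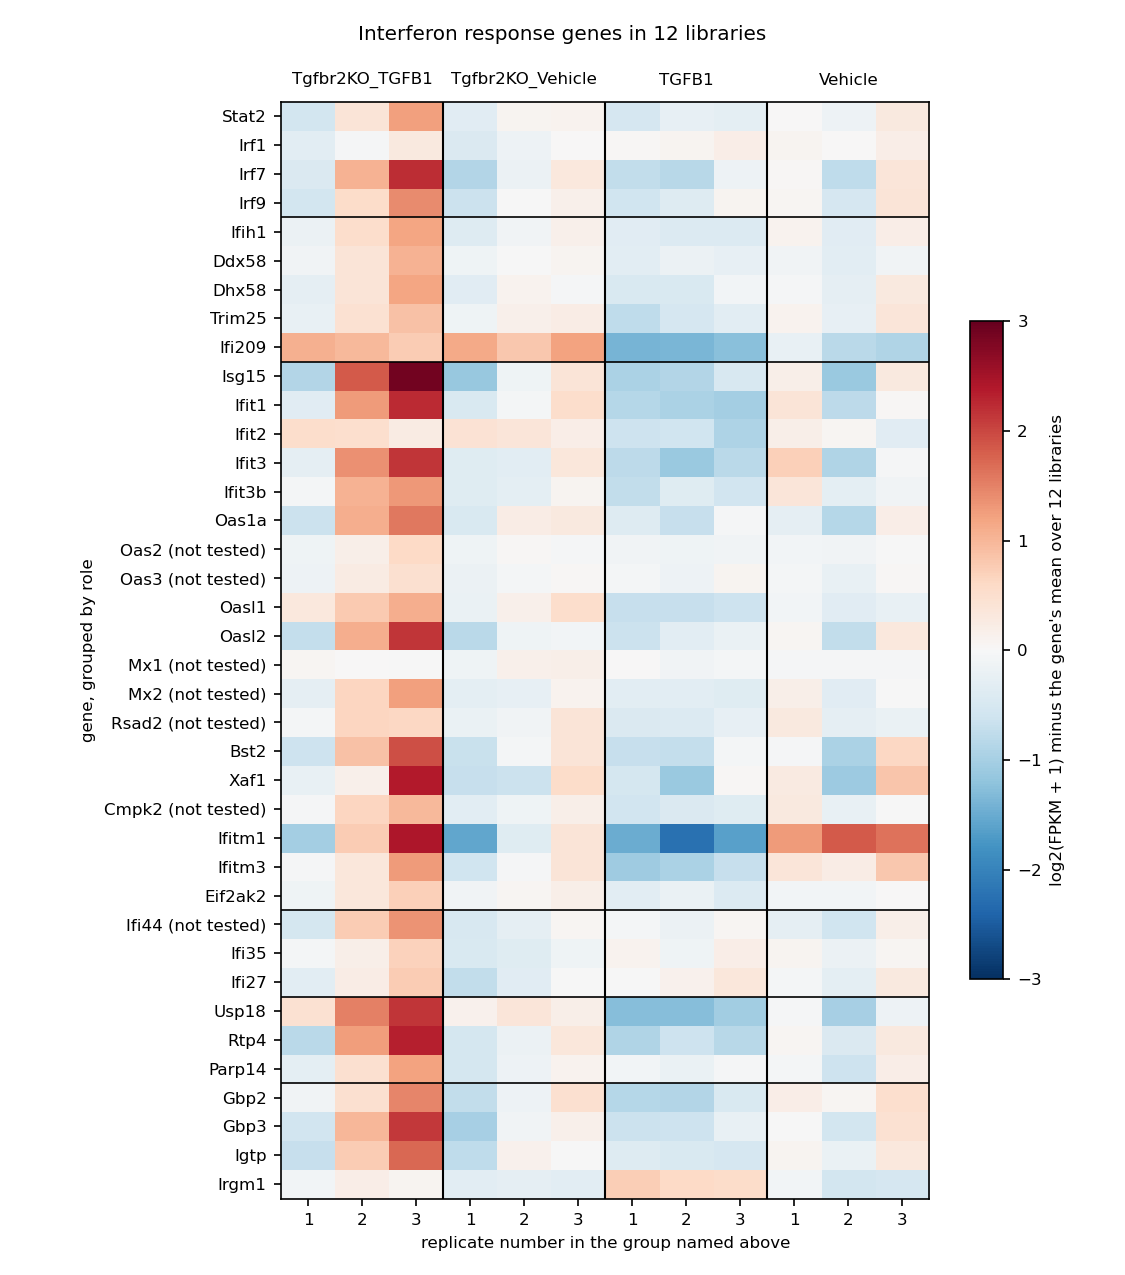
The heatmap shows each of the 38 members (down the page, by role) in the 12 libraries, as log2(FPKM + 1) minus the mean of the gene over the libraries. Replicate 3 of Tgfbr2KO_TGFB1, the highest library for 33 of the 38 members, stands out from replicate 1 of the same group.

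The spread between libraries of a group was wide for these genes. The median SD of log2(FPKM + 1) over the 31 tested members was 0.784 in Tgfbr2KO_TGFB1, 0.369 in Tgfbr2KO_Vehicle, 0.180 in TGFB1 and 0.309 in Vehicle. Over all tested genes it was 0.146, 0.104, 0.0947 and 0.124 in the same groups. All 31 members had an SD above the all-gene median in Tgfbr2KO_TGFB1, 29 in Tgfbr2KO_Vehicle, 23 in TGFB1 and 28 in Vehicle. The 2 knockout groups also shared the order of their libraries. Replicate 3 was above replicate 2 and replicate 2 above replicate 1 in 33 of 38 members in Tgfbr2KO_TGFB1 (28 of the 31 tested, against 25.6% of all tested genes) and in 31 of 38 in Tgfbr2KO_Vehicle (25 of the 31, against 24.2%). In Vehicle it was replicate 2 that stood lowest, in 34 of 38 members (27 of the 31, against 31.7% of all tested genes).

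Most members moved together over the 12 libraries. The Pearson correlation of log2(FPKM + 1) with the mean of the other tested members was above 0.8, between 0.845 and 0.991, for 24 of the 31, and highest for Ifih1. The 7 others were Ifi35 at 0.685, Ifitm1 at 0.692, Ifi27 at 0.620, Ifi209 at 0.433, Ifit2 at 0.404, Irf1 at 0.391 and Irgm1 at -0.20. These points share libraries, groups and replicate numbers, so the correlations are a description.

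Among the antiviral effectors, the ISG15 and IFIT genes are among the most strongly interferon-induced genes in many cells. Isg15 encodes a ubiquitin-like protein that is attached to other proteins. Isg15 had 5.34, 40.9 and 86.4 FPKM in Tgfbr2KO_TGFB1, 4.33, 9.69 and 14.5 in Tgfbr2KO_Vehicle, 5.05, 5.39 and 7.39 in TGFB1 and 12.3, 4.41 and 13.5 in Vehicle. Its level in replicate 3 of Tgfbr2KO_TGFB1 was 16.2 times that in replicate 1. Ifit1 and Ifit3 encode proteins that bind foreign RNA and its partners. Ifit1 had 1.16, 5.57 and 11.9 FPKM in Tgfbr2KO_TGFB1, 0.993, 1.61 and 2.92 in Tgfbr2KO_Vehicle, 0.495, 0.410 and 0.340 in TGFB1 and 2.55, 0.584 and 1.79 in Vehicle. Ifit3 had 1.59, 7.12 and 13.0 FPKM in Tgfbr2KO_TGFB1, 1.44, 1.54 and 2.96 in Tgfbr2KO_Vehicle, 0.832, 0.463 and 0.807 in TGFB1 and 4.11, 0.682 and 2.05 in Vehicle. Both followed the library order of Isg15 in the 2 knockout groups but not in TGFB1 or Vehicle, and their TGFB1 libraries all lay below the lowest Tgfbr2KO_TGFB1 library. Ifit3b is a near-identical copy of Ifit3, so reads may be divided between them and each level is uncertain. Ifit3b had 0.699, 2.63 and 3.30 FPKM in Tgfbr2KO_TGFB1, 0.358, 0.425 and 0.860 in Tgfbr2KO_Vehicle, 0.0611, 0.361 and 0.185 in TGFB1 and 1.27, 0.443 and 0.635 in Vehicle. Ifit3b had the same order in Tgfbr2KO_TGFB1, with replicate 1 of Tgfbr2KO_TGFB1 below replicate 1 of Vehicle. Ifit2, another gene of the family, departed from it. Ifit2 had 5.66, 5.60 and 4.47 FPKM in Tgfbr2KO_TGFB1, 5.24, 4.98 and 4.34 in Tgfbr2KO_Vehicle, 2.03, 2.04 and 1.43 in TGFB1 and 4.23, 3.85 and 2.63 in Vehicle. Its 6 knockout libraries all lay above its 6 other libraries, its TGFB1 libraries were the lowest of all, and replicate 3 was the lowest library of each group.

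The OAS genes encode enzymes and enzyme-like proteins that respond to double-stranded RNA, and the enzymes make oligoadenylates that activate RNase L. Oas1a has several near-identical neighbours in the mouse, and its level is uncertain for that reason. Oas1a had 0.229, 3.04 and 4.72 FPKM in Tgfbr2KO_TGFB1, 0.385, 1.25 and 1.34 in Tgfbr2KO_Vehicle, 0.461, 0.177 and 0.861 in TGFB1 and 0.579, 0.0502 and 1.20 in Vehicle. Oas2 stayed below 1 FPKM in every library and was listed at 0 in 3 of them. Oas2 had 0, 0.235 and 0.637 FPKM in Tgfbr2KO_TGFB1, 0, 0.124 and 0.0680 in Tgfbr2KO_Vehicle, 0.0148, 0 and 0.0149 in TGFB1 and 0.0354, 0.0113 and 0.0735 in Vehicle. In both genes the highest values were those of replicates 2 and 3 of Tgfbr2KO_TGFB1. Oas3 was low as well, with 0.0183 to 0.665 FPKM, and the top was again replicate 3 of Tgfbr2KO_TGFB1. Oasl1, known in the mouse as a brake on IRF7 translation, and Oasl2 are relatives of the OAS enzymes. Oasl1 had 1.54, 2.52 and 3.35 FPKM in Tgfbr2KO_TGFB1, 0.777, 1.25 and 1.96 in Tgfbr2KO_Vehicle, 0.259, 0.256 and 0.318 in TGFB1 and 0.918, 0.614 and 0.756 in Vehicle. Oasl2 had 0.767, 5.14 and 11.8 FPKM in Tgfbr2KO_TGFB1, 0.637, 1.64 and 1.73 in Tgfbr2KO_Vehicle, 0.836, 1.33 and 1.53 in TGFB1 and 2.03, 0.735 and 2.58 in Vehicle. The TGFB1 libraries of Oasl1 lay below all libraries of the other groups, while those of Oasl2 lay within the range of Vehicle.

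Mx1 and Mx2 encode dynamin-like GTPases that block virus replication, and many laboratory mouse strains carry defective copies of Mx1. Mx1 had 0.371, 0.333 and 0.301 FPKM in Tgfbr2KO_TGFB1, 0.218, 0.468 and 0.491 in Tgfbr2KO_Vehicle, 0.329, 0.235 and 0.262 in TGFB1 and 0.298, 0.285 and 0.300 in Vehicle. Mx1 showed no high value in Tgfbr2KO_TGFB1. Mx2 had 0.123, 1.09 and 2.17 FPKM in Tgfbr2KO_TGFB1, 0.0890, 0.137 and 0.444 in Tgfbr2KO_Vehicle, 0.0740, 0.0794 and 0.0497 in TGFB1 and 0.513, 0.0565 and 0.328 in Vehicle. Mx2 reached its top values in replicates 2 and 3 of Tgfbr2KO_TGFB1. Rsad2, the radical enzyme viperin, ranged from 0.106 to 1.34 FPKM, with its top in replicate 2 of Tgfbr2KO_TGFB1, and Cmpk2, a mitochondrial nucleotide kinase beside it in the genome, from 0.0362 to 2.02 FPKM, with its top in replicate 3 of that group.

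Bst2 encodes tetherin, which holds budding viruses at the cell surface. Bst2 had 20.0, 58.6 and 123.28 FPKM in Tgfbr2KO_TGFB1, 19.6, 30.1 and 41.3 in Tgfbr2KO_Vehicle, 19.2, 18.7 and 30.3 in TGFB1 and 30.5, 15.9 and 48.7 in Vehicle. It was the fourth most abundant member and followed the library order of Isg15 in Tgfbr2KO_TGFB1, with 6.16 times the level in replicate 3 of Tgfbr2KO_TGFB1 as in replicate 1. Ifitm1 and Ifitm3 encode membrane proteins that block the entry of viruses. Ifitm3 was by far the most abundant member. Ifitm3 had 471, 610.4 and 1166 FPKM in Tgfbr2KO_TGFB1, 316, 470.0 and 634 in Tgfbr2KO_Vehicle, 230.1, 251 and 297 in TGFB1 and 618, 559 and 844 in Vehicle. Its 3 TGFB1 libraries lay below all other libraries. Ifitm1 had 1.67, 8.09 and 27.8 FPKM in Tgfbr2KO_TGFB1, 0.817, 3.16 and 5.99 in Tgfbr2KO_Vehicle, 0.913, 0.135 and 0.733 in TGFB1 and 12.1, 18.1 and 15.7 in Vehicle. Ifitm1 was the member with the widest range, its 3 TGFB1 libraries lay below all 3 Vehicle libraries, and so did all 3 Tgfbr2KO_Vehicle libraries. Eif2ak2, the kinase PKR that halts translation on double-stranded RNA, changed over a narrow range. Eif2ak2 had 8.78, 12.6 and 16.7 FPKM in Tgfbr2KO_TGFB1, 8.97, 10.2 and 11.1 in Tgfbr2KO_Vehicle, 7.62, 8.32 and 7.13 in TGFB1 and 9.11, 9.17 and 9.87 in Vehicle. Xaf1, linked to cell death, was high in 1 library. Xaf1 had 2.66, 3.74 and 21.2 FPKM in Tgfbr2KO_TGFB1, 1.63, 1.73 and 5.25 in Tgfbr2KO_Vehicle, 1.96, 0.970 and 3.37 in TGFB1 and 4.12, 0.985 and 6.57 in Vehicle. Replicate 3 of Tgfbr2KO_TGFB1 was 7.95 times replicate 1, while replicate 2 lay below 2 Vehicle libraries.

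**Figure D2:**
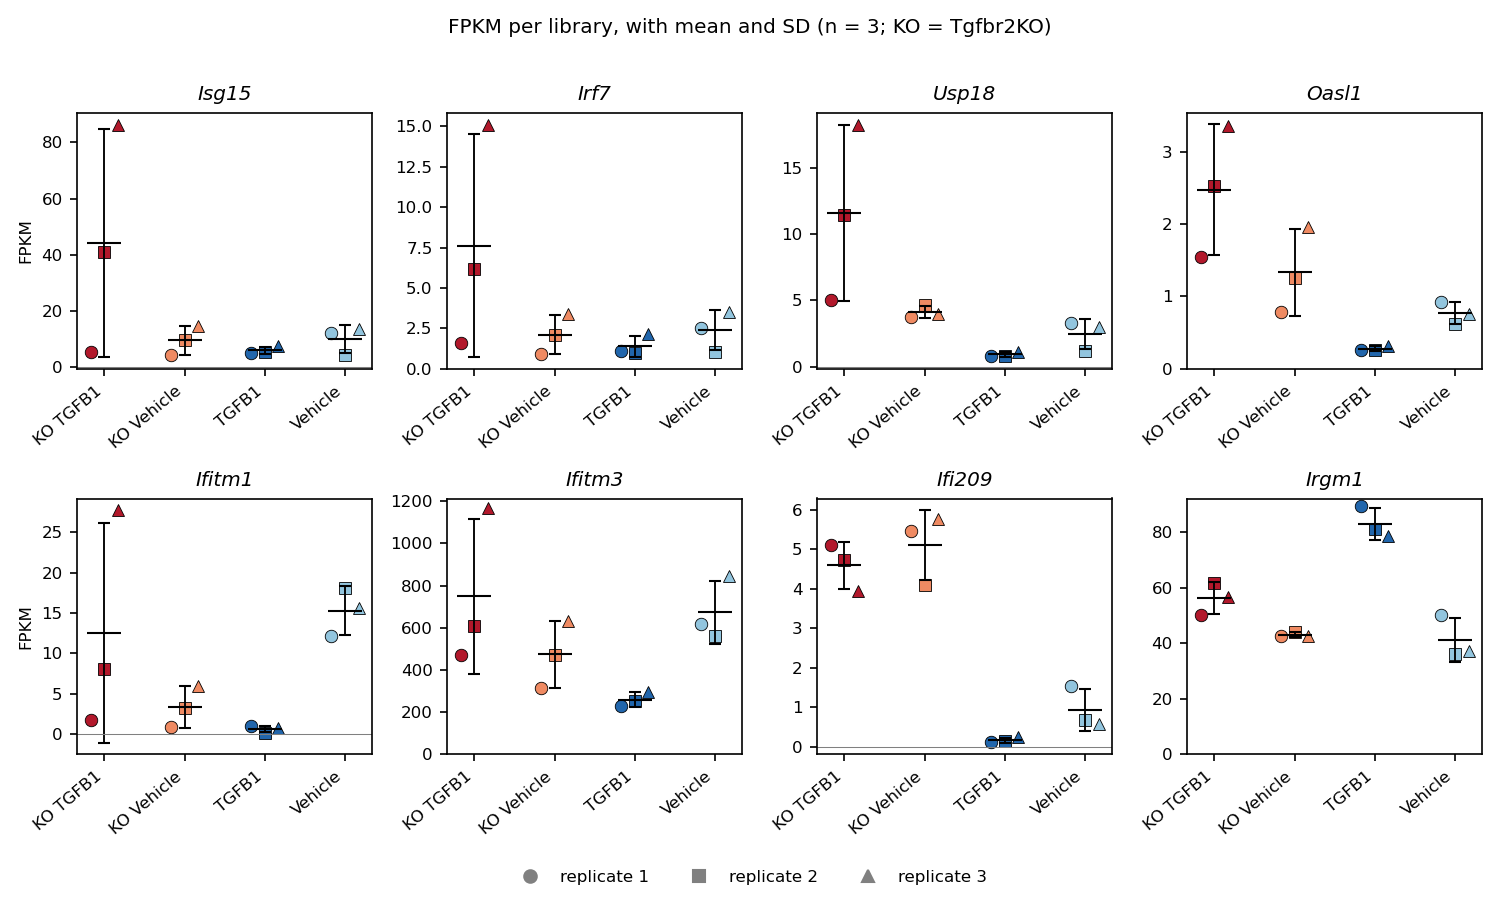
The panels show FPKM (vertical axes) of single members in every library, as points coloured by group and shaped by replicate, with the group mean and SD as a line and bar (n = 3). Isg15 reached 86.4 FPKM in 1 Tgfbr2KO_TGFB1 library, against 5.34 FPKM in another of the same group, while Irgm1 was highest in the 3 TGFB1 libraries.

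Sensors of viral RNA were at 0.265 to 20.2 FPKM. Ddx58 encodes RIG-I and Ifih1 encodes MDA5, which detect double-stranded RNA in the cytoplasm. Ddx58 had 8.63, 12.5 and 20.2 FPKM in Tgfbr2KO_TGFB1, 8.52, 9.27 and 9.97 in Tgfbr2KO_Vehicle, 7.38, 8.18 and 7.78 in TGFB1 and 8.60, 7.29 and 8.57 in Vehicle. Ifih1 had 1.17, 2.52 and 4.53 FPKM in Tgfbr2KO_TGFB1, 0.869, 1.28 and 1.74 in Tgfbr2KO_Vehicle, 0.943, 0.834 and 0.848 in TGFB1 and 1.64, 0.938 and 1.82 in Vehicle. In both genes replicate 3 of Tgfbr2KO_TGFB1 was highest and replicate 2 second of all libraries. Dhx58, the related regulator LGP2, ranged from 0.265 to 3.00 FPKM with the same top library. Trim25 encodes a ubiquitin ligase that acts on RIG-I. Trim25 had 6.12, 10.4 and 14.3 FPKM in Tgfbr2KO_TGFB1, 6.57, 8.26 and 8.69 in Tgfbr2KO_Vehicle, 3.92, 4.83 and 5.64 in TGFB1 and 7.95, 6.04 and 9.60 in Vehicle. Its TGFB1 libraries all lay below the lowest Vehicle library and below the lowest Tgfbr2KO_TGFB1 library. Ifi209 belongs to a family of nucleic acid sensors with near-identical neighbours, so its level is uncertain. Ifi209 had 5.11, 4.73 and 3.95 FPKM in Tgfbr2KO_TGFB1, 5.46, 4.11 and 5.77 in Tgfbr2KO_Vehicle, 0.115, 0.141 and 0.233 in TGFB1 and 1.53, 0.668 and 0.575 in Vehicle. The 6 knockout libraries of Ifi209 lay above the 6 others without overlap, the 3 TGFB1 libraries were lowest, and replicate 3 of Tgfbr2KO_TGFB1 was the lowest of its group.

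The transcription factors that carry the signal are themselves target genes. Stat2 and Irf9 are parts of the factor that binds the response element. Stat2 had 2.75, 6.15 and 11.8 FPKM in Tgfbr2KO_TGFB1, 3.31, 4.79 and 4.85 in Tgfbr2KO_Vehicle, 2.85, 3.60 and 3.43 in TGFB1 and 4.49, 3.89 and 5.63 in Vehicle. Irf9 had 4.76, 11.4 and 21.4 FPKM in Tgfbr2KO_TGFB1, 4.36, 7.39 and 8.40 in Tgfbr2KO_Vehicle, 4.55, 5.48 and 7.96 in TGFB1 and 7.73, 4.96 and 10.1 in Vehicle. Irf7 is the factor that amplifies the production of type I interferons. Irf7 had 1.56, 6.16 and 15.1 FPKM in Tgfbr2KO_TGFB1, 0.892, 2.08 and 3.36 in Tgfbr2KO_Vehicle, 1.10, 0.950 and 2.15 in TGFB1 and 2.55, 1.06 and 3.52 in Vehicle. All 3 followed the order of Isg15 in Tgfbr2KO_TGFB1, and replicate 1 of that group was below replicate 3 of Vehicle in each. Irf1, a factor more strongly tied to interferon gamma, was nearly level. Irf1 had 9.51, 11.6 and 14.8 FPKM in Tgfbr2KO_TGFB1, 8.58, 10.7 and 12.2 in Tgfbr2KO_Vehicle, 12.3, 12.9 and 14.0 in TGFB1 and 12.7, 12.2 and 14.0 in Vehicle. Its Tgfbr2KO_TGFB1 libraries overlapped those of every other group.

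The members listed under feedback are Usp18, Parp14 and Rtp4. Usp18 encodes the protease that removes ISG15 and holds the type I receptor in check. Usp18 had 4.99, 11.5 and 18.2 FPKM in Tgfbr2KO_TGFB1, 3.75, 4.61 and 3.94 in Tgfbr2KO_Vehicle, 0.812, 0.797 and 1.14 in TGFB1 and 3.28, 1.19 and 2.97 in Vehicle. The Tgfbr2KO_TGFB1 libraries of Usp18 lay above all others, including its replicate 1, and the TGFB1 libraries lay below all others. Parp14, an ADP-ribosyl transferase, ranged from 0.536 to 4.42 FPKM. Rtp4 encodes a receptor transporter protein. Rtp4 had 0.773, 6.34 and 14.7 FPKM in Tgfbr2KO_TGFB1, 1.14, 1.74 and 2.90 in Tgfbr2KO_Vehicle, 0.654, 1.01 and 0.741 in TGFB1 and 2.23, 1.28 and 2.79 in Vehicle. Both had their top in replicate 3 of Tgfbr2KO_TGFB1, and in Rtp4 replicate 1 of that group lay below all 3 Vehicle libraries.

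The interferon-inducible GTPases gather at the vacuoles of intracellular pathogens. Gbp2 had 6.84, 10.7 and 22.0 FPKM in Tgfbr2KO_TGFB1, 4.01, 6.60 and 10.7 in Tgfbr2KO_Vehicle, 3.65, 3.53 and 5.07 in TGFB1 and 8.68, 7.70 and 11.0 in Vehicle. Gbp3 had 1.15, 5.41 and 12.9 FPKM in Tgfbr2KO_TGFB1, 0.618, 1.99 and 2.59 in Tgfbr2KO_Vehicle, 1.04, 1.10 and 1.75 in TGFB1 and 2.19, 1.19 and 3.40 in Vehicle. Gbp2 and Gbp3 are guanylate-binding proteins of a family with similar copies, and in both replicate 3 of Tgfbr2KO_TGFB1 was the top library. Igtp ranged from 0.294 to 6.19 FPKM with the same top library. Irgm1, a regulator of the other GTPases and of autophagy, ran the other way. Irgm1 had 50.2, 61.7 and 56.5 FPKM in Tgfbr2KO_TGFB1, 42.5, 44.2 and 42.7 in Tgfbr2KO_Vehicle, 89.3, 81.1 and 78.4 in TGFB1 and 50.3, 36.0 and 37.2 in Vehicle. Its 3 TGFB1 libraries lay above all 9 others. Of the other interferon-induced genes, Ifi35 and Ifi27 were abundant. Ifi35 had 13.0, 15.3 and 22.3 FPKM in Tgfbr2KO_TGFB1, 9.59, 10.3 and 12.2 in Tgfbr2KO_Vehicle, 14.6, 12.3 and 15.5 in TGFB1 and 14.3, 11.9 and 14.1 in Vehicle. Ifi27 had 79.2, 116 and 169 FPKM in Tgfbr2KO_TGFB1, 59.3, 78.8 and 98.2 in Tgfbr2KO_Vehicle, 99.0, 109 and 127 in TGFB1 and 96.2, 81.3 and 122.95 in Vehicle. In both the Tgfbr2KO_TGFB1 libraries overlapped those of TGFB1. Ifi44, which was not tested, ranged from 0.147 to 3.43 FPKM, with the top in replicate 3 of Tgfbr2KO_TGFB1.

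The first comparison asks what TGFB1 does to cells without the canonical receptor. No member passed the test between Tgfbr2KO_TGFB1 and Tgfbr2KO_Vehicle in either direction, out of 31, and limma called 0 of all 12641 genes (0% higher and 0% lower). At an unadjusted p under 0.05 there were 5 members, Ifi35, Ifit3b, Irgm1, Oasl1 and Usp18, and 748 genes in all, and the smallest adjusted p was 0.738 among members and 0.395 among all genes. Even so, the change was above 0 for 30 of the 31, with a median log2 change of 0.65, where all tested genes had a median of 0.00. The libraries of the 2 groups did not overlap for Ifi35, Usp18 and Irgm1, which were higher in Tgfbr2KO_TGFB1, and for no member in the other direction (6.6% and 5.23% of all tested genes). The size of the difference was not shared by the replicates. Against the library of the same number in Tgfbr2KO_Vehicle, the median log2 difference of the members was 0.13 in replicate 1, 0.63 in replicate 2 and 1.21 in replicate 3. The same medians over all genes were 0.01, 0.01 and -0.00. A difference of at least 2-fold on that scale was seen for 0, 10 and 19 of the 31 members, all higher, against 0.649%, 0.775% and 2.1% of all tested genes.

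Isg15 shows the pattern. Its mean was 44.2 ± 40.6 FPKM in Tgfbr2KO_TGFB1 and 9.50 ± 5.07 FPKM in Tgfbr2KO_Vehicle (SD, n = 3 each), 4.65 times as high and 2.43 times without replicate 3 of Tgfbr2KO_TGFB1, and limma gave a log2 change 1.57 ± 0.82 SE, adjusted p = 0.738. Usp18, with no overlap, averaged 11.6 ± 6.62 FPKM in Tgfbr2KO_TGFB1 and 4.10 ± 0.449 FPKM in Tgfbr2KO_Vehicle, with a log2 change 1.15 ± 0.37 SE, adjusted p = 0.738. Same-numbered libraries within a genotype deviated together, so the number was also entered as a block. With the block, 16 of the 31 members and 1897 of all 12641 tested genes had an unadjusted p under 0.05. The smallest adjusted p of a member was 0.247. With a block within each genotype these were 25 members, 1976 genes and 0.173, and no gene passed the threshold with either block. Leaving out replicate 3 of Tgfbr2KO_TGFB1 lowered the median log2 change of the members to 0.28, and leaving out replicate 1 raised it to 1.10.

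**Figure D3:**
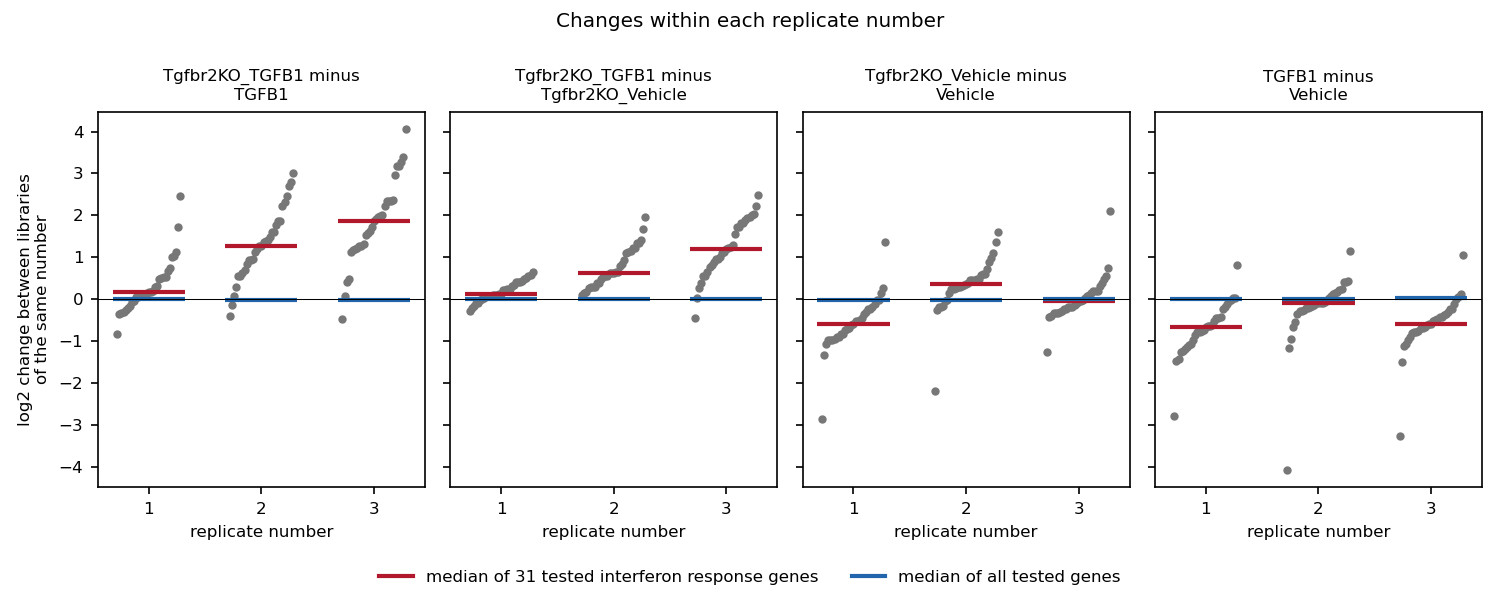
The plot shows, for each replicate number, the log2(FPKM + 1) difference of every tested member (points) between same-numbered libraries, in a panel each for Tgfbr2KO_TGFB1 minus TGFB1, Tgfbr2KO_TGFB1 minus Tgfbr2KO_Vehicle, Tgfbr2KO_Vehicle minus Vehicle and TGFB1 minus Vehicle, with the member median (red) and the all-gene median (blue) as lines. In Tgfbr2KO_TGFB1 minus Tgfbr2KO_Vehicle the member medians were 0.13, 0.63 and 1.21 for replicates 1, 2 and 3.

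The second comparison asks what TGFB1 does to cells with the receptor. Ifit2, Ifitm1, Ifitm3 and Ifi209 fell in TGFB1 relative to Vehicle, and Irgm1 rose. These were 4 lower members of 31 (12.9%), against 14.6% of all tested genes, and 1 higher member, against 17.3%. In this fit the share called was thus below that of all genes in the higher direction and near it in the lower direction. With the 2 groups fitted alone 8 of the 31 were lower, against 13.8% of all tested genes. Of the 31 changes, 26 were below 0, and their median was -0.46, where all genes had 0.02. The 3 TGFB1 libraries lay below the 3 Vehicle libraries without overlap for 14 of the 31 members, against 21.8% of all tested genes, and above them for Irgm1 alone, against 26.1%. These 14 were Ifit1, Ifit2, Ifit3b, Oasl1, Stat2, Usp18, Rtp4, Trim25, Ifitm1, Ifitm3, Ifi209, Gbp2, Igtp and Eif2ak2.

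Ifitm1 had the largest change of the 31. It averaged 0.594 ± 0.407 FPKM in TGFB1 and 15.3 ± 3.02 FPKM in Vehicle, 25.8-fold lower, with a log2 change -3.37 ± 0.74 SE, adjusted p = 0.00626. Ifitm3 averaged 259 ± 34.2 FPKM in TGFB1 and 674 ± 150.2 FPKM in Vehicle, 2.60-fold lower, with a log2 change -1.36 ± 0.33 SE, adjusted p = 0.0107. Ifit2 was 1.95-fold lower, with a log2 change -0.68 ± 0.15 SE, adjusted p = 0.00653. Ifi209 gave a log2 change -0.69 ± 0.18 SE, adjusted p = 0.0149, from low levels in both groups, and it was not called when the 2 groups were fitted alone (adjusted p 0.0016 to 0.0525 over its alternatives). Irgm1 averaged 83.0 ± 5.65 FPKM in TGFB1 and 41.2 ± 7.93 FPKM in Vehicle, 2.02 times as high, with a log2 change 1.01 ± 0.12 SE, adjusted p = 0.000191. Isg15 was among those that did not pass, with a log2 change -0.56 ± 0.82 SE, adjusted p = 0.642 (0.316 to 0.849 over its alternatives). Its SE rests on the estimate of the spread shared by all groups, to which the wide Tgfbr2KO_TGFB1 libraries contribute. With the replicate block, Trim25 (adjusted p = 0.0246) and Gbp2 (adjusted p = 0.00699) also fell, and a block within each genotype added Oasl1 (adjusted p = 0.0141), which made 6 and 7 lower members, against 18.7% of all tested genes with either block. Over all alternatives the adjusted p ran from 0.0227 to 0.255 for Trim25, from 0.000235 to 0.177 for Gbp2 and from 0.0141 to 0.282 for Oasl1. Replicate 1 of Tgfbr2KO_TGFB1 belongs to neither group but enters the shared estimate of the spread. Without it 7 members were lower (14.7% of all tested genes), and without replicate 3 of Tgfbr2KO_TGFB1 6 were (16.5%). Of the libraries left out, Vehicle replicate 3 moved the median most, to -0.27 without it.

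The difference between the 2 responses was tested as an interaction, the change in knockout cells minus the change in cells with the receptor. It passed the test above 0 for 7 of 31 members, namely Gbp2, Ifit2, Ifit3b, Ifitm1, Ifitm3, Oasl1 and Usp18, against 8.38% of all tested genes. It passed below 0 for Irgm1 alone, against 9.26%. Among those called the largest was that of Ifitm1 (log2 change 4.61 ± 1.04 SE, adjusted p = 0.0135), followed by Ifitm3 (log2 change 1.97 ± 0.47 SE, adjusted p = 0.0175) and Usp18 (log2 change 1.95 ± 0.53 SE, adjusted p = 0.0295). Gbp2 gave 1.74 ± 0.54 (adjusted p = 0.0499), and Irgm1 -0.64 ± 0.17 (adjusted p = 0.027). Over the 31 members the median was 1.03, with 30 of 31 above 0, where all tested genes had a median of -0.02. Antiviral effectors gave 5 of the 7, out of 13 tested, and none of the 4 transcription factors passed.

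The number of interaction calls hung on single libraries. It was 20 without replicate 1 of Tgfbr2KO_TGFB1, 4 without its replicate 3, and 2 without its replicate 2, where 9.07%, 7.25% and 6.91% of all tested genes were called above 0. It was 2 to 3 when any 1 library of Vehicle or TGFB1 or replicate 1 or 2 of Tgfbr2KO_Vehicle was left out. In these settings 5.64% to 7.06% of all tested genes were called above 0. Without replicate 3 of Tgfbr2KO_Vehicle the number was 5, against 7.82%. The calls of Ifitm1 and Ifitm3 held in all 21 alternatives fitted. That of Irgm1 was lost without Vehicle replicate 2 or 3, TGFB1 replicate 1 or Tgfbr2KO_Vehicle replicate 1 or 2. With the replicate block Trim25 was added (adjusted p = 0.0289, and 0.0166 to 0.225 over its alternatives), where 13.6% of all tested genes were called above 0. With the block within each genotype 17 members passed above 0, where 13.7% of all tested genes did, among them Isg15 (adjusted p = 0.0434, and 0.0145 to 0.424 over its alternatives) and Irf7 (adjusted p = 0.0196, and 0.0196 to 0.371).

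**Figure D4:**
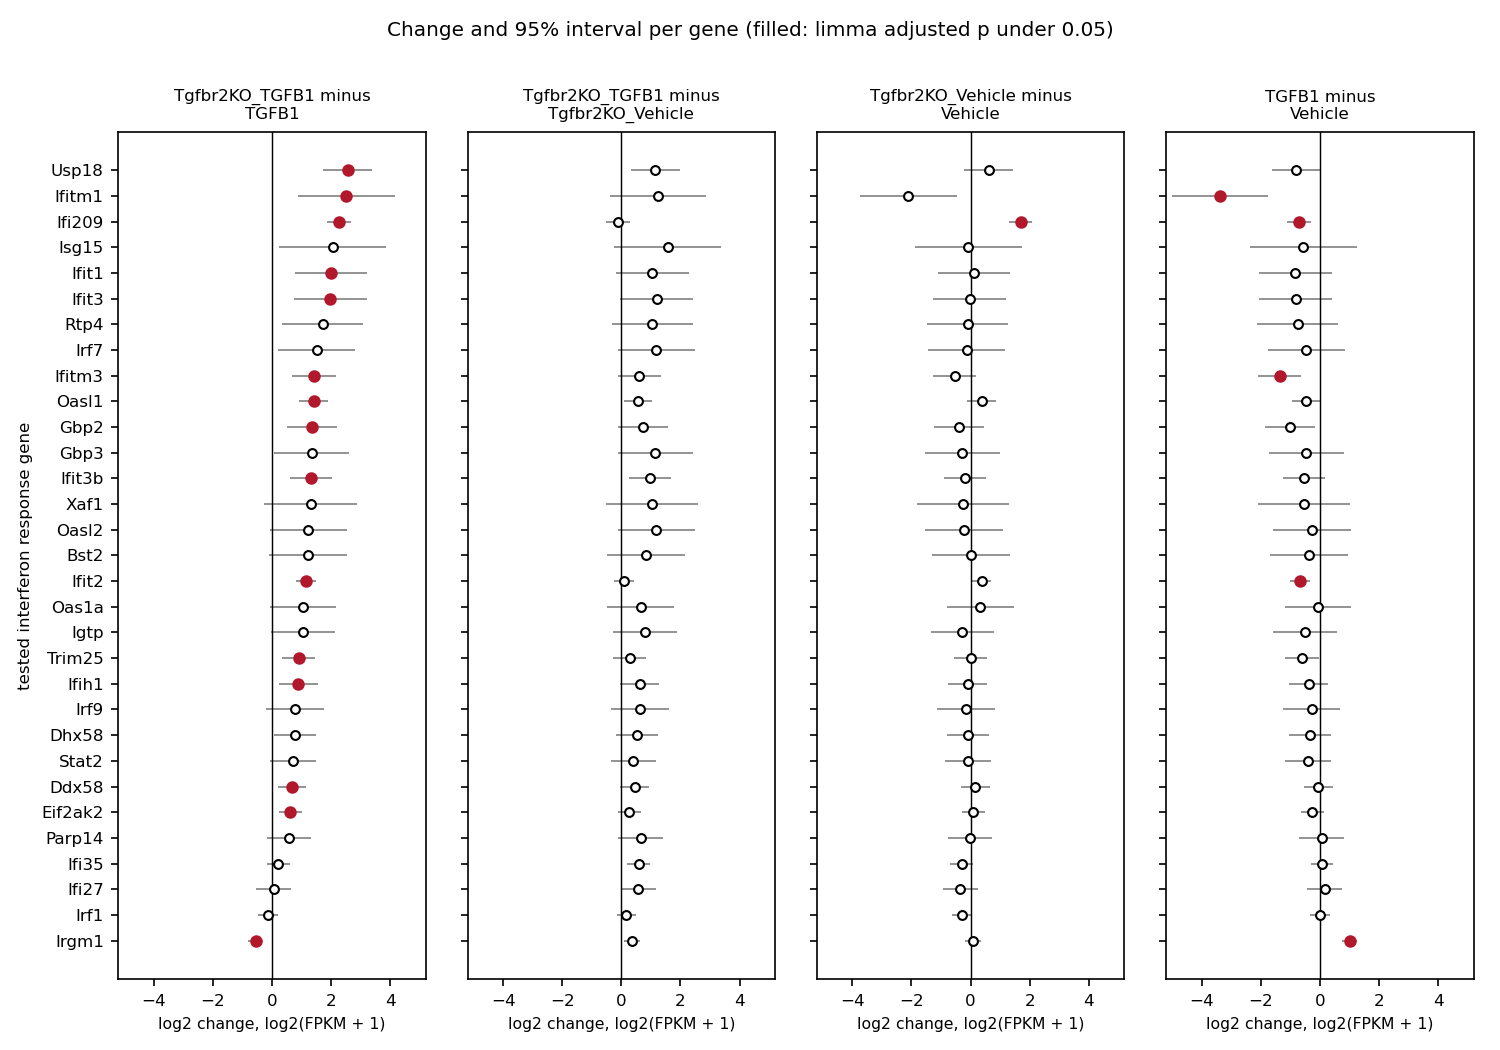
The plot shows the log2 change of each tested member with its 95% interval from limma, in a panel for each of the 4 comparisons between groups, with filled points for members past the adjusted p of 0.05. Of the 31 members, 14 were higher and Irgm1 lower in Tgfbr2KO_TGFB1 relative to TGFB1, while none passed between the 2 knockout groups.

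The knockout alone was set against its control in vehicle. Ifi209 rose in Tgfbr2KO_Vehicle relative to Vehicle, and no other of the 31 members passed. It averaged 5.11 ± 0.883 FPKM in Tgfbr2KO_Vehicle and 0.923 ± 0.525 FPKM in Vehicle, 5.54 times as high, with a log2 change 1.69 ± 0.18 SE, adjusted p = 0.0103. Of all tested genes 0.522% were called higher and 0.72% lower. The call of Ifi209 was lost without Vehicle replicate 3, without Tgfbr2KO_Vehicle replicate 1, and when the 2 groups were fitted alone. At an unadjusted p under 0.05 limma gave 3 of the 31 members, Ifi209, Ifit2 and Ifitm1, and 2769 of all 12641 tested genes. The libraries did not overlap for Ifit2, Usp18 and Ifi209, which were higher in Tgfbr2KO_Vehicle (14.8% of all tested genes), and for Irf1 and Ifitm1, which were lower (15.6%). The median log2 change of the 31 was -0.09, with 11 above 0, where all tested genes had -0.00. It was -0.33 without Vehicle replicate 2, the lowest library of that group for most members, and -0.25 without Tgfbr2KO_Vehicle replicate 3. It was -0.04 without Vehicle replicate 1, and it turned above 0 without Vehicle replicate 3 (0.06) and without Tgfbr2KO_Vehicle replicate 1 (0.09).

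Both groups given TGFB1 were compared last, knockout against cells with the receptor. In Tgfbr2KO_TGFB1, 14 of 31 members (45.2%) rose relative to TGFB1, against 15.6% of all tested genes, and Irgm1 fell, against 18.3%. The same 14 lay above TGFB1 in every library, against 21.3% of all tested genes, and Irgm1 below, against 24.1%. Antiviral effectors gave 8 of the 14, out of 13 tested: Ifit1, Ifit2, Ifit3, Ifit3b, Oasl1, Ifitm1, Ifitm3 and Eif2ak2. Sensors gave 4 of 5 tested, Ifih1, Ddx58, Trim25 and Ifi209, and Usp18 and Gbp2 made up the rest. None of the 4 transcription factors passed, and neither did Isg15, Bst2, Oas1a, Oasl2, Xaf1, Dhx58, Rtp4, Parp14, Gbp3, Igtp, Ifi27 and Ifi35. Over the 31 the median log2 change was 1.21, with 29 above 0, where all genes had -0.01.

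Usp18 averaged 11.6 ± 6.62 FPKM in Tgfbr2KO_TGFB1 and 0.916 ± 0.192 FPKM in TGFB1, 12.6 times as high, with a log2 change 2.56 ± 0.37 SE, adjusted p = 0.00048. Ifi209 was 28.2 times as high, from low levels in TGFB1, with a log2 change 2.26 ± 0.18 SE, adjusted p = 1.09e-05. Ifit1 was 14.9 times as high, and 8.12 times without replicate 3 of Tgfbr2KO_TGFB1 (log2 change 2.01 ± 0.55 SE, adjusted p = 0.0173). Oasl1 was 8.91 times as high (log2 change 1.41 ± 0.22 SE, adjusted p = 0.000699). Ifitm3 averaged 749 ± 368 FPKM in Tgfbr2KO_TGFB1 and 259 ± 34.2 FPKM in TGFB1, with a log2 change 1.43 ± 0.33 SE, adjusted p = 0.00762. Irgm1 was 1.48-fold lower (log2 change -0.56 ± 0.12 SE, adjusted p = 0.00486). Isg15 had a log2 change of 2.05 with a wide error of 0.82 (SE), and its adjusted p was 0.0775.

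Here, too, the count of higher members hung on single libraries. It was 26 without replicate 1 of Tgfbr2KO_TGFB1, 7 without its replicate 2 and 8 without its replicate 3, where 14.3%, 12.5% and 15.9% of all tested genes were called higher. It was 9 without any 1 of the TGFB1 libraries, against 12.3% to 13.4% of all tested genes. The calls of Ifi209, Ifit2, Ifit3b, Ifitm3, Oasl1, Usp18 and Irgm1 held in all alternatives fitted. Those of Ifit1, Ifit3, Ifih1, Ddx58, Trim25, Ifitm1, Gbp2 and Eif2ak2 were each lost without replicate 2 or replicate 3 of Tgfbr2KO_TGFB1, among others. Without replicate 3 of Tgfbr2KO_TGFB1 the median log2 change was 0.61. By replicate number the median was 0.18, 1.28 and 1.86 for replicates 1, 2 and 3, and 5, 19 and 27 of the 31 members were at least 2-fold higher, against 5.46%, 6.15% and 6.63% of all tested genes. Since this comparison, the comparison of TGFB1 with Vehicle and the interaction share libraries, they are not independent of each other.

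The genes upstream of the members were looked up from a list of 144 other genes of the pathway, of which 140 were in the table and 100 were tested. Counts over them are to be read against all tested genes, of which 15.6% were called higher and 18.3% lower in Tgfbr2KO_TGFB1 relative to TGFB1, and 17.3% higher and 14.6% lower in TGFB1 relative to Vehicle. None of the 11 interferon genes on the list was tested. Ifng, Ifna1, Ifna2, Ifna4, Ifna5, Ifnl2 and Ifnl3 were listed at 0 in all 12 libraries. Ifnb1 was above 0 only in Tgfbr2KO_TGFB1 replicate 2 (0.0663 FPKM) and TGFB1 replicate 1 (0.107 FPKM), Ifne only in TGFB1 replicate 3 (0.136 FPKM) and Ifnk only in Tgfbr2KO_Vehicle replicate 1 (0.0796 FPKM). Ifnz reached 0.667 FPKM, in Tgfbr2KO_TGFB1 replicate 1. All chains of the receptors of type I and type II interferon were tested, and of the type III receptor only the shared chain Il10rb.

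Ifnar1 had 13.0, 14.0 and 17.6 FPKM in Tgfbr2KO_TGFB1, 12.6, 14.1 and 14.4 in Tgfbr2KO_Vehicle, 14.2, 14.3 and 14.8 in TGFB1 and 15.6, 15.3 and 15.7 in Vehicle. Ifnar2 had 44.9, 50.1 and 63.6 FPKM in Tgfbr2KO_TGFB1, 38.0, 45.0 and 49.0 in Tgfbr2KO_Vehicle, 40.9, 39.3 and 42.8 in TGFB1 and 50.4, 41.0 and 55.3 in Vehicle. Neither chain of the type I receptor passed in any comparison, and both were highest in replicate 3 of Tgfbr2KO_TGFB1. Both chains of the interferon gamma receptor rose in TGFB1 relative to Vehicle, Ifngr1 with a log2 change 0.38 ± 0.07 SE, adjusted p = 0.00282 and Ifngr2 with a log2 change 0.49 ± 0.09 SE, adjusted p = 0.00258. Ifngr1 had 22.2, 23.2 and 19.9 FPKM in Tgfbr2KO_TGFB1, 22.4, 20.8 and 21.9 in Tgfbr2KO_Vehicle, 24.0, 23.2 and 25.8 in TGFB1 and 17.5, 18.1 and 19.8 in Vehicle. Ifngr2 had 55.5, 54.1 and 49.4 FPKM in Tgfbr2KO_TGFB1, 48.9, 48.9 and 47.3 in Tgfbr2KO_Vehicle, 68.4, 55.5 and 61.2 in TGFB1 and 47.7, 44.6 and 38.9 in Vehicle. Il10rb, the chain that the type III receptor shares with interleukin receptors, rose in Tgfbr2KO_TGFB1 relative to TGFB1, with a log2 change 0.27 ± 0.08 SE, adjusted p = 0.0268. Il10rb had 20.6, 20.0 and 21.7 FPKM in Tgfbr2KO_TGFB1, 17.6, 19.5 and 18.3 in Tgfbr2KO_Vehicle, 18.6, 15.3 and 17.6 in TGFB1 and 17.9, 18.4 and 20.7 in Vehicle. The calls of Ifngr1 and Ifngr2 held in all 22 alternatives. That of Il10rb was lost without TGFB1 replicate 2 or 3 or Tgfbr2KO_TGFB1 replicate 1 or 3, and with the compared groups fitted alone. Ifnlr1, the other chain of the type III receptor, stayed at or below 0.259 FPKM.

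Among the tested kinases and transcription factors, Jak1, Jak2, Irf2 and Nlrc5 rose in Tgfbr2KO_TGFB1 relative to TGFB1, and Tyk2 and Irf3 fell. In TGFB1 relative to Vehicle, Tyk2 and Irf3 rose and Jak2, Stat3 and Irf2 fell. Of 11 tested sensors and adaptors, Cgas, Tlr3, Myd88, Tbk1, Ikbke and Zbp1 rose in Tgfbr2KO_TGFB1 relative to TGFB1 and none fell, while in TGFB1 relative to Vehicle Cgas, Myd88 and Ikbke fell and Nod1 rose. Zbp1, a sensor of Z-form nucleic acids, showed the library pattern of the members. Zbp1 had 1.89, 8.77 and 24.2 FPKM in Tgfbr2KO_TGFB1, 0.716, 1.98 and 2.07 in Tgfbr2KO_Vehicle, 0.522, 0.342 and 1.32 in TGFB1 and 2.60, 1.20 and 4.00 in Vehicle. Its log2 change in Tgfbr2KO_TGFB1 relative to TGFB1 was 2.41 ± 0.65 (SE, adjusted p = 0.0156). The call was lost without TGFB1 replicate 2 and with the compared groups fitted alone.

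Inhibitors moved in the same comparisons. Among 10 tested, Socs1 and Socs3, which block JAK kinases, Ptpn2 and Samhd1 fell in TGFB1 relative to Vehicle. They rose in Tgfbr2KO_TGFB1 relative to TGFB1. Tnfaip3 did the reverse in both comparisons, and Trex1 rose in the second of them. Socs3 had 25.8, 27.8 and 47.5 FPKM in Tgfbr2KO_TGFB1, 21.6, 29.4 and 29.3 in Tgfbr2KO_Vehicle, 6.59, 7.89 and 9.52 in TGFB1 and 31.5, 31.4 and 42.7 in Vehicle. The TGFB1 libraries of Socs3 lay below all 9 others. Of 42 other tested antiviral effectors, Ifitm2, Ly6a, Rnf213, Sp100, Pml, Lgals3bp, Lgals9, Mlkl, Slfn9 and Ube2l6 rose in Tgfbr2KO_TGFB1 relative to TGFB1, and Ifi30 and Shisa5 fell. In TGFB1 relative to Vehicle, Ifitm2, Rnf213, Pml, Apobec3, Lgals9, Slfn9 and Ube2l6 fell and Ifi30, Slfn2 and Shisa5 rose. Ube2l6 encodes the enzyme that hands ISG15 to its targets. Ube2l6 had 19.1, 21.2 and 34.6 FPKM in Tgfbr2KO_TGFB1, 14.6, 16.8 and 15.9 in Tgfbr2KO_Vehicle, 7.62, 5.98 and 7.86 in TGFB1 and 18.6, 19.0 and 20.6 in Vehicle. Its TGFB1 libraries lay below all 9 others, and the interaction gave a log2 change 1.91 ± 0.26 SE, adjusted p = 0.00101.

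Of 18 tested GTPases and antigen processing genes, Gbp6, Gbp9, Irgm2, Iigp1, Gvin1 and Tap1 rose in Tgfbr2KO_TGFB1 relative to TGFB1 and Tapbp fell. In TGFB1 relative to Vehicle, Gbp9 fell and Tapbp and B2m rose. All 4 tested chemokines, Cxcl10, Ccl5, Ccl2 and Ccl7, rose in Tgfbr2KO_TGFB1 relative to TGFB1, and Ccl2 fell in TGFB1 relative to Vehicle. Cxcl10 had 4.55, 9.69 and 11.6 FPKM in Tgfbr2KO_TGFB1, 3.38, 3.98 and 7.10 in Tgfbr2KO_Vehicle, 1.32, 1.02 and 2.27 in TGFB1 and 4.03, 2.38 and 3.51 in Vehicle. The 3 Tgfbr2KO_TGFB1 libraries of Cxcl10 lay above the 3 TGFB1 libraries, with a log2 change 1.87 ± 0.33 SE, adjusted p = 0.00165. Over the 100 tested genes of the list, 37 rose and 6 fell in Tgfbr2KO_TGFB1 relative to TGFB1, and 11 rose and 19 fell in TGFB1 relative to Vehicle, the last 2 counts near or under the shares of all tested genes. Of the 43 called between both groups given TGFB1, 25 kept the call in every alternative and 15 lost it without some library. Of the 30 called between TGFB1 and Vehicle, 17 kept it and 13 lost it without some library. Among the calls lost most often were those of Irgm2 (kept in 6 of 20 alternatives), Lgals3bp (8 of 21) and Trex1 (9 of 21) in the first comparison. In the second, Rnf213 kept it in 9 of 21. The 37 became 53 without replicate 1 of Tgfbr2KO_TGFB1 (14.3% of all tested genes) and 29 without its replicate 2 or 3 (12.5% and 15.9%). Without a TGFB1 library the count was 27 to 29 (12.3% to 13.4%). The 19 became 10 to 13 without any 1 library of TGFB1 or Vehicle (10.5% to 12.6% of all tested genes). With the block within each genotype the 19 became 37 (18.7%). The interaction passed above 0 for 10 and below 0 for 5, against 8.38% and 9.26% of all tested genes. With the replicate block 36 passed above 0, against 13.6% of all tested genes, with the block within each genotype 43, against 13.7%, and without replicate 1 of Tgfbr2KO_TGFB1 33, against 9.07%. None passed between the 2 knockout groups, and Nlrc5 and Slfn2 rose in Tgfbr2KO_Vehicle relative to Vehicle, against 0.522% of all tested genes, both calls being lost without any 1 library of these groups.

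Markers of other cells were present in these cultures, and their levels are given for the same libraries. The 15 macrophage and monocyte markers, all in the table and 13 of them tested, summed to 124, 308 and 218 FPKM in Tgfbr2KO_TGFB1, 151, 412 and 317 in Tgfbr2KO_Vehicle, 313, 17.5 and 428 in TGFB1, and 516, 41.0 and 773 in Vehicle. In Vehicle the library lowest for these markers, replicate 2, was also the lowest for 34 of the 38 members. In Tgfbr2KO_TGFB1 the marker sum was highest in replicate 2, where the members were highest in replicate 3. None of the 15 markers was at 0 throughout a group. Cd14 fell in TGFB1 relative to Vehicle and rose in Tgfbr2KO_TGFB1 relative to TGFB1, and no other of the 13 passed in any comparison. The 12 fibroblast markers were also lowest in replicate 2 of Vehicle, with sums of 8535, 7423 and 12708 FPKM in replicates 1, 2 and 3. Their sums had the order of most members in Tgfbr2KO_TGFB1 (5064, 6118 and 9911 FPKM) and Tgfbr2KO_Vehicle (4063, 5547 and 5759 FPKM). They rose likewise in TGFB1 (13634, 14344.5 and 15007 FPKM), where 11 of the 38 members had that order. The part of either kind of cell in the results was not tested.

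**Figure D5:**
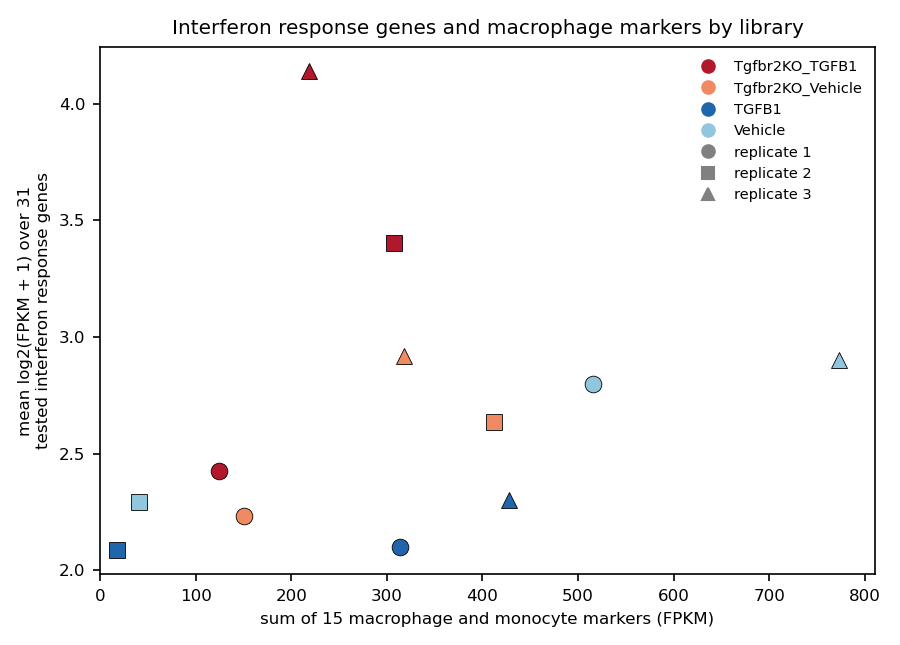
The plot sets the summed FPKM of the 15 macrophage and monocyte markers (horizontal axis) against the mean log2(FPKM + 1) of the 31 tested members (vertical axis), 1 point per library, coloured by group and shaped by replicate. Replicate 2 of TGFB1 and of Vehicle have the lowest marker sums, 17.5 and 41.0 FPKM, and Tgfbr2KO_TGFB1 replicate 3, the library with the highest members, has 218 FPKM.

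Plasmacytoid dendritic cells are the main source of type I interferon in many settings, and their 8 markers summed to 11.9 to 21.8 FPKM in Tgfbr2KO_TGFB1, 10.7 to 13.8 in Tgfbr2KO_Vehicle, 14.8 to 15.9 in TGFB1 and 15.4 to 19.4 in Vehicle. Only 2 of the 8 were tested, and Klk1 was at 0 throughout Tgfbr2KO_TGFB1, TGFB1 and Vehicle. In each of these groups 6 of the 8 stayed under 1 FPKM in every library, and in Tgfbr2KO_Vehicle 7 did. The sums therefore do not show that such cells were present. The 10 markers of T and NK cells summed to at most 1.35 FPKM in Tgfbr2KO_TGFB1, 1.97 in Tgfbr2KO_Vehicle, 1.29 in TGFB1 and 2.02 in Vehicle, with Cd3g and Ncr1 at 0 in all 12 libraries. The 6 neutrophil markers summed to 10.9 to 189 FPKM in Tgfbr2KO_TGFB1 and 40.3 to 221 in Tgfbr2KO_Vehicle, and to 0.248 to 1.41 FPKM in TGFB1 and 1.25 to 11.6 in Vehicle. Nearly all of that came from S100a8, while Elane was at 0 in all 12 libraries and S100a9 at 0 throughout TGFB1 and Vehicle. Their order over the knockout libraries, highest in replicate 1, was opposite to that of most members, and their part in the results was not tested.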

How the data were processed

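Per the labels' protocols, polyadenylated RNA was sequenced by a provider. The authors deposited FPKM per gene symbol, and per the submitters' processing notes kallisto 0.46.1, DESeq2 1.40.1 and build mm9 were used. How the FPKM were scaled is not stated. Columns were matched to samples by group and label number (31, 121 and 123 for replicates 1, 2 and 3). Values were taken as log2(FPKM + 1). Group means of all 12 libraries were fitted with limma 3.58.1 in R 4.3.3 (variance trend, 8 residual degrees of freedom), for the 12641 genes that reached 1 FPKM in 3 or more libraries. P-values were adjusted by Benjamini and Hochberg at 0.05. Whether the libraries of a group are from different animals is not labelled, and p-values cover only how these libraries vary. Precision is limited by 3 libraries a group: the median SE of a log2 change was 0.35 for members and 0.11 for all genes. The fit was tested on simulated data with independent noise and 1 SD per gene for all groups. There it found 70.1% to 88.1% of changes of log2 size 1, with 5 to 10 false calls per comparison. The simulation held neither unequal spread between groups nor shared deviations of same-numbered libraries, so it does not cover these features of the members.

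The gene-wise residuals of libraries with 1 number correlated at 0.391, 0.445 and 0.408 between TGFB1 and Vehicle and at 0.588, 0.227 and 0.530 between the knockout groups. The numbers thus pair libraries within a genotype, and there blocked values stand beside results whose calls they change. Between genotypes the same correlations were 0.336, -0.0867 and 0.412 in vehicle and 0.337, 0.00946 and 0.276 with TGFB1, so replicates 1 and 3 also deviated together and replicate 2 did not.

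The members and all lists were chosen with earlier results of these data known. Every member is named. Values in each library are given for members called in any comparison, the 6 most abundant, the 6 with the widest range and 15 chosen by name. Pathway genes named are those called, the receptors and the ligands, except that 1 gene counted in the list is not reported here, and 6 further genes are named by likeness. The alternatives tried were pseudocounts of 0.1 and 0.5, no filter, a mean of at least 5 FPKM, other library scalings, no trend, the compared groups alone, replicate blocks and each library left out. Relative depth came from the most frequent ratio of low FPKM values to Vehicle replicate 1. Promoters are those of RefSeq (GRCm38.p6), matched by symbol.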

Additional observations from a re-analysis of the deposited data

Results flagged for a closer look

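For 8 members the response to TGFB1 differed between knockout cells and cells with the receptor by the interaction test of limma (change in Tgfbr2KO cultures minus change in the others, log2 scale, adjusted over all tested genes). The difference was 4.61 for Ifitm1, 1.97 for Ifitm3, 1.95 for Usp18, 1.74 for Gbp2, 1.51 for Ifit3b, 1.03 for Oasl1, 0.77 for Ifit2 and -0.64 for Irgm1. Ifitm1 and Ifitm3 kept the call in all 21 alternatives fitted. The other 6 lost it in some: Ifit2 kept it in 11 of 20, Usp18 in 10 of 20, Ifit3b and Oasl1 in 9 of 20, Gbp2 in 9 of 21 and Irgm1 in 16 of 21. With 3 libraries a group, single outlying libraries were not tested.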

How the results depend on the processing

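Shares of all tested genes in the same direction and setting follow in brackets. With libraries left out 10.5% to 16.5% were lower in TGFB1 relative to Vehicle. The interaction then passed above 0 for 5.64% to 9.07% and below 0 for 6.12% to 10.4%. In Tgfbr2KO_Vehicle relative to Vehicle 0% to 2.6% were then higher, and in Tgfbr2KO_TGFB1 relative to TGFB1 12.3% to 15.9%. No call of a member changed its direction under any alternative. In TGFB1 relative to Vehicle the count of 4 lower members became 7 with the replicate block within each genotype (18.7%), 2 with a mean of at least 5 FPKM (13.8%) and 8 with the compared groups alone (13.8%), and 4 to 7 when libraries were left out (median log2 change -0.63 to -0.27). The 7 interaction calls above 0 became 17 with the replicate block within each genotype (13.7%), 2 with no filter (4.3%) and 3 with a mean of at least 5 FPKM (8.53%), and 2 to 20 when libraries were left out. The single call below 0 became 0 to 1, and the median 0.75 to 1.43, when libraries were left out, and the median was 1.73 with a pseudocount of 0.1. In Tgfbr2KO_Vehicle relative to Vehicle the single higher member became 2 with the replicate block (7.01%). The count was 0 with a mean of at least 5 FPKM (0.817%) and 0 with the compared groups alone (0%). It was 0 to 1 when libraries were left out (median -0.33 to 0.09). With the block 1 member, Ifitm1, was lower (8%), with a limma adjusted p = 0.0461 (0.0461 to 0.443 over its alternatives). In Tgfbr2KO_TGFB1 relative to TGFB1 the 14 higher members became 6 with a mean of at least 5 FPKM (14.6%) and 7 with the compared groups alone (12.2%), and 7 to 26 when libraries were left out (median 0.61 to 1.70); the block gave 21 (20.1%), adding Isg15, Irf7, Bst2, Xaf1, Dhx58, Rtp4 and Gbp3. Between the knockout groups the count stayed at 0 under all alternatives, with medians of 0.28 to 1.10 when libraries were left out. Between genotypes same-numbered libraries deviated together for replicates 1 and 3 but not for replicate 2, so the block is given here only. Upper-quartile and median-of-ratios scaling changed none of these counts. The cause of the changes was not tested, except that a stricter filter leaves fewer members. Weights per library were estimated but did not converge, and no fit used them. FPKM give no read depth, and low members such as Oas2 and Mx2 cannot be judged from them.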

Other observations

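The 6 tested genes outside both lists whose log2(FPKM + 1) was most like the mean of the tested members over the 12 libraries were Trim30d (Pearson r 0.967), Pcsk5 (0.949), Gm6548 (0.945), Matr3 (0.933), Pign (0.927) and Fer (0.921). Trim30d had 0.711, 2.23 and 6.43 FPKM in Tgfbr2KO_TGFB1, 0.457, 0.868 and 1.15 in Tgfbr2KO_Vehicle, 0.412, 0.638 and 0.515 in TGFB1 and 1.13, 0.607 and 2.03 in Vehicle. Pcsk5 had 3.25, 4.93 and 7.71 FPKM in Tgfbr2KO_TGFB1, 2.98, 4.09 and 3.59 in Tgfbr2KO_Vehicle, 2.81, 2.38 and 2.82 in TGFB1 and 4.47, 2.92 and 5.09 in Vehicle. Both were highest in replicate 3 of Tgfbr2KO_TGFB1. These genes were chosen by that likeness, the libraries share groups and replicate numbers, and the correlations are a description.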
